A study of Homo sapiens with 6 samples.

Results

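Intermediate filaments are the rope-like filaments of animal cells, beside actin and microtubules. Keratins form the filaments of epithelia as obligate pairs of a type I and a type II chain, vimentin forms those of mesenchymal cells, and lamins line the inside of the nuclear envelope. The family members followed here were the type II keratin genes KRT7, KRT8 and KRT80, the type I keratin genes KRT18 and KRT19, VIM, NES, and the lamin genes LMNA, LMNB1 and LMNB2. These 10 members were chosen by name from 58336 genes counted, and all 10 were found and passed the filter on low counts.

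The cells were 12Z, an established human endometriotic epithelial line. They carried an siRNA against SMARCA4 (siBRG1, 3 libraries) or a non-targeting siRNA (control, 3 libraries). BRG1, the SMARCA4 product, is a motor subunit of SWI/SNF remodellers of chromatin. Both groups received 50 nM siRNA with a lipid reagent, in cells grown in 10% serum. The medium was renewed 24 h later and replaced by one with 0.5% serum after 48 h, and cells were harvested for RNA after 72 h. Strand-specific libraries started from 500 ng total RNA. Per the labels, data of the 3 control libraries come from a previous submission, unlike those of siBRG1, so submission and siRNA cannot be told apart in any result here. Whether replicates were separate cultures is not stated, so p-values measure spread among these libraries only, which may be technical.

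Counts on the sense strand came to 12391161 to 13369692 per siBRG1 library and 40228678 to 49720320 per control library. SMARCA4 itself stood at 60.5, 78.9 and 50.6 CPM (counts scaled to the TMM-adjusted library total) in siBRG1, against 244, 266 and 262 CPM in control. Of the epithelial markers besides keratins, CDH1 (E-cadherin) was low, at 5.87 ± 1.35 CPM in siBRG1 and 3.05 ± 0.553 CPM in control (SD, n = 3 each). EPCAM was lower still, at 1.61 CPM in siBRG1 and 0.251 CPM in control. EPCAM passed the filter on low counts through its siBRG1 libraries alone, so its direction was fixed by the filter. The 6 epithelial markers, keratins included, summed to 3476 to 3733 CPM in siBRG1 and 3935 to 4020 CPM in control. Of these, 3 were called higher in siBRG1 (EPCAM, CDH1, KRT8) and 2 lower (KRT7, KRT19), beside 36.1% and 36.5% of all genes. All 5 stromal markers (PDGFRB, COL1A1, DCN, LUM, THY1) were detected, with summed levels of 3227 to 3423 CPM in siBRG1 and 2351 to 2500 CPM in control. In siBRG1 4 of the 5 were called higher and THY1 lower, beside 36.1% and 36.5% of all genes. The 3 immune markers summed to 9.69 to 10.2 CPM in siBRG1 and 3.95 to 5.37 CPM in control, with CD14 higher (9.39 ± 0.443 CPM in siBRG1 and 4.08 ± 0.561 CPM in control), PTPRC not called and CD3E at 0 counts in every library. Of the 3 endothelial markers (2.35 to 4.007 CPM in siBRG1 and 2.39 to 2.96 CPM in control) CDH5 was higher, VWF was lower and PECAM1 was too low to test. CDH5 had 79 counts in siBRG1 and 66 in control, and its control libraries alone would not have passed the filter. The 3 smooth muscle markers together stayed at or under 0.0729 CPM in siBRG1 and 0.144 CPM in control. The part of these marker differences in the results below was not tested. In bulk RNA, fewer cells with a transcript and less transcript per cell cannot be told apart.

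KRT7 and KRT8 lie on chromosome 12 and are close relatives, of which one was far lower in siBRG1 and the other was not. Their coding sequences of 1407 and 1449 bases were identical at 72.8% of aligned positions, the highest value among pairs of the genes followed. By the same measure KRT80 and NES, a keratin and a nestin gene, had 71.2%, above the type II keratin genes KRT7 and KRT80 at 61.3%. The percentage alone therefore does not show how closely genes are related. Reads from stretches shared between genes can be hard to place, but such stretches are rare in KRT7. Of all 50-base words in its principal transcript, 0.997% also occurred in a transcript of another gene, and no 75-base word did. KRT8 and KRT18, which have many processed copies in the genome, shared 32.7% and 31.8% of their 50-base words and 15.7% and 5.85% of their 75-base words. VIM, NES and the 3 lamin genes shared none.

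KRT7 differed most of the 10 genes on the log2 scale, while the abundant pair KRT8 and KRT18 had log2 fold changes of 0.09 and −0.05. The RNAs of KRT7, KRT80, KRT19, VIM and LMNA fell in siBRG1, and those of NES, LMNB2 and KRT8 rose. These 8 calls had adjusted p-values under 0.05 in edgeR's quasi-likelihood test, adjusted over all 15830 genes tested. The calls of KRT8 and LMNB2 were lost, with a change of sign, when trends of counts with GC content and length were removed. The count of 8 is close to the background, since 72.6% of all genes tested were called (36.5% lower and 36.1% higher in siBRG1). CPM of the groups did not overlap for 8 of the 10 genes, against 74.3% of all genes. A change of at least 2-fold was called for KRT7 alone, against 21.6% of all genes, of which 11.1% lower and 10.4% higher. The median log2 fold change of the 10 genes was −0.12, beside −0.01 over all genes tested.

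**Figure D1:**
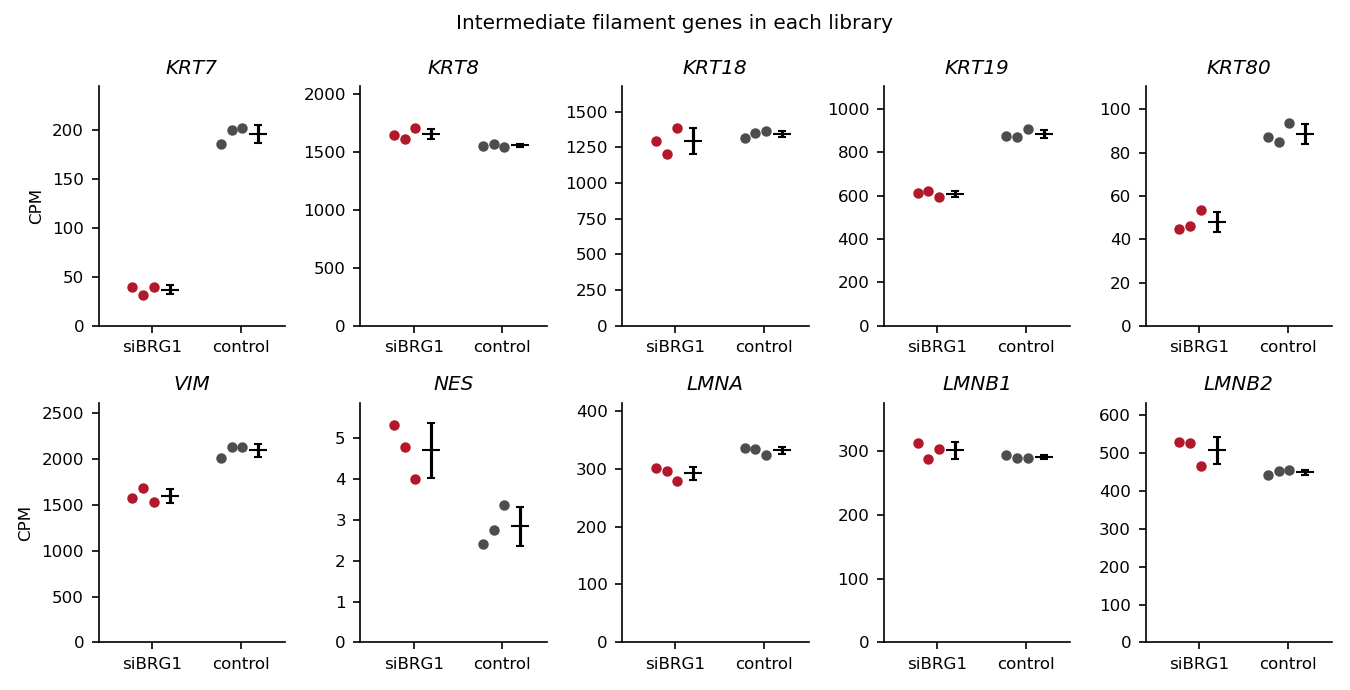
CPM of each intermediate filament gene in 3 siBRG1 libraries (red, left) and 3 control libraries (grey, right), with mean and SD as a black bar. Each gene has its own axis. The groups lie apart for 8 genes, overlap for KRT18 and LMNB1, and differ by the largest ratio for KRT7.

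KRT7 encodes the type II keratin of glandular and ductal epithelia, usually found beside keratins 8, 18 and 19. It stood at 39.6, 31.7 and 39.5 CPM in siBRG1, against 185, 200 and 202 CPM in control. Every siBRG1 library was below every control library by a wide gap. This came to −2.40 on the log2 scale (SE 0.0602, adjusted p = 9.51e-24, edgeR), a level 5.29-fold lower. Only 3.16% of the genes tested had a log2 fold change this low or lower. KRT7 lies on chromosome 12 from 52232520 to 52252186, plus strand. It had 1452 sense counts in siBRG1 and 24983 in control. On the antisense strand it had 16 counts in siBRG1 and 152 in control. KRT7-AS and KRT87P overlap it on the opposite strand, and its unstranded count stood to the sense count at 0.725 in siBRG1 and 0.760 in control.

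KRT80, a type II keratin gene described in many epithelia, was also lower, at 44.9, 45.9 and 53.3 CPM in siBRG1 against 87.3, 85.1 and 93.6 CPM in control. The groups did not overlap, at −0.88 on the log2 scale (SE 0.0595, adjusted p = 1.14e-13). KRT80 lies on chromosome 12 from 52168996 to 52192000 on the minus strand, next to KRT7. KRT7 was lower relative to this neighbour in every siBRG1 library. The log2 ratio of KRT80 to KRT7 in CPM was 0.38 ± 0.179 in siBRG1 and −1.14 ± 0.0802 in control (SD, n = 3 each).

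KRT8, the type II partner of keratin 18 in simple epithelia, stood at 1649, 1612 and 1704 CPM in siBRG1 and 1553, 1571 and 1546 CPM in control. All siBRG1 values lay above the control values, by a small margin. KRT8 differed by 0.09 on the log2 scale (SE 0.0366, adjusted p = 0.0318), with a 95% interval of 0.01 to 0.16. This call was made in 8 of 16 settings tried, with values of −0.02 to 0.14 (adjusted p = 0.000913 to 0.634). It was lost on leaving out siBRG1 replicate 3 (adjusted p = 0.143) or control replicate 1, 2 or 3 (adjusted p = 0.133, 0.125 and 0.175).

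KRT18, the type I partner, stood at 1297, 1202 and 1388 CPM in siBRG1 and 1318, 1350 and 1363 CPM in control. The siBRG1 libraries spread on both sides of the control libraries, and its −0.05 on the log2 scale (SE 0.0423, adjusted p = 0.273) did not pass. Its 95% interval of −0.14 to 0.03 leaves out a change as large as that of KRT19. Settings that called KRT18 lower were the removal of GC and length trends (−0.25, adjusted p = 9.60e-06), a fit of protein-coding genes (−0.09, adjusted p = 0.0448), the absence of a count filter (−0.10, adjusted p = 0.0262) and leaving out siBRG1 replicate 3 (−0.10, adjusted p = 0.0342). Without siBRG1 replicate 2 it stood at 0.00 (adjusted p = 0.974).

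KRT8 (52897187 to 52949954, minus strand) and KRT18 (52948871 to 52952901, plus strand) overlap at one end on chromosome 12. The unstranded count of KRT18 stood to its sense count at a ratio of 0.595 in siBRG1 and 0.607 in control. On the antisense strand of KRT8, where KRT18 lies, 24.6 ± 1.103% of its stranded counts were found in siBRG1 and 25.7 ± 1.49% in control (SD, n = 3 each). Reads that map to several places are listed apart from the genes, and they made up 18.5 to 21.5% of all reads in siBRG1 libraries and 9.57 to 10.0% in control libraries. Annotated KRT8 pseudogenes together held 30.2 ± 1.496 CPM in siBRG1 and 19.5 ± 0.534 CPM in control, and KRT18 pseudogenes 2.45 ± 0.455 CPM in siBRG1 and 3.75 ± 0.385 CPM in control (SD, n = 3 each). For each family an exact two-sided permutation test gave p = 0.1, the smallest value 3 libraries against 3 allow. These sums came to 1.82% of KRT8 itself in siBRG1 and 1.252% in control, and to 0.191% of KRT18 itself in siBRG1 and 0.279% in control. Their part in the values of KRT8 and KRT18 was not tested.

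KRT19, the smallest keratin and a type I chain of simple and ductal epithelia, was lower in siBRG1. It stood at 612, 621 and 593 CPM in siBRG1, against 875, 868 and 906 CPM in control, with no overlap. KRT19 fell by 0.54 on the log2 scale (SE 0.0369, adjusted p = 1.76e-13), with a log2 fold change of −0.79 after removal of GC and length trends. KRT19 lies on chromosome 17 from 41523617 to 41528308, minus strand, in the type I keratin cluster, whereas KRT18 sits beside the type II genes.

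VIM encodes vimentin, the main filament protein of mesenchymal cells and of many cultured lines. Its RNA fell, as did that of KRT7, KRT80 and KRT19. Its values were 1579, 1682 and 1531 CPM in siBRG1, against 2018, 2136 and 2133 CPM in control, with no overlap. VIM fell by 0.39 on the log2 scale (SE 0.0400, adjusted p = 8.72e-10), a level 1.31-fold lower. With unstranded counts its log2 fold change was −0.66. The antisense genes VIM-AS1 and AL133415.1 overlap VIM, and its unstranded count stood to the sense count at 0.335 in siBRG1 and 0.421 in control. VIM lies on chromosome 10 from 17228259 to 17237593, plus strand.

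NES encodes nestin, a large filament protein of progenitor cells that assembles with vimentin. Unlike VIM it was higher in siBRG1, though at a very low level. It stood at 5.32, 4.78 and 3.999 CPM in siBRG1, against 2.41, 2.75 and 3.36 CPM in control, from 185 and 360 counts. The groups did not overlap, but the highest control and lowest siBRG1 library lay close. NES rose by 0.74 on the log2 scale (SE 0.186, adjusted p = 0.000905), with a 95% interval of 0.35 to 1.12. NES lies on chromosome 1 from 156668763 to 156677397, minus strand.

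Promoters of VIM and NES are shown because these genes moved in opposite directions though their proteins assemble together. Both stretches are the 120 bases before the start of transcription from RefSeq on GRCh38.p14, at chr10:17228121-17228240 (plus strand) and chr1:156677408-156677527 (minus strand), written 5′ to 3′ on the gene's strand. Capitals mark the SP/KLF motif GGGCGG, on either strand.
VIM: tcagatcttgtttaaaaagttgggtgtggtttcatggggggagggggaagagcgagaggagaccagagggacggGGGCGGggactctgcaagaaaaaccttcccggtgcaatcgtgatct
NES: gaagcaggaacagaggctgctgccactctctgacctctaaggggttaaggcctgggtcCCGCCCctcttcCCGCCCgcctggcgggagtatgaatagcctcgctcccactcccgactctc
The table held 9 promoters for 6 of the 10 genes (LMNA, LMNB1, LMNB2, VIM, NES and KRT8), each 250 bases before to 50 after a start. GGGCGG was in 7 of these 9, and in 45.0% of all 35116 promoters. The AP-1 motif TGANTCA was in 0 of 9 (7.71% of all promoters) and the TATA motif TATAAA in 0 of 9 (11.5%). The TEAD motif GGAATG was in 1 of 9 (14.0%), that of KRT8, the ZEB/SNAI E-box CACCTG in 1 (20.6%), in LMNA, and the NF-Y motif CCAAT in 2 (34.6%), in LMNA and LMNB1. Both strands were searched for each motif. A match is a run of letters, not a binding site.

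**Figure D2:**
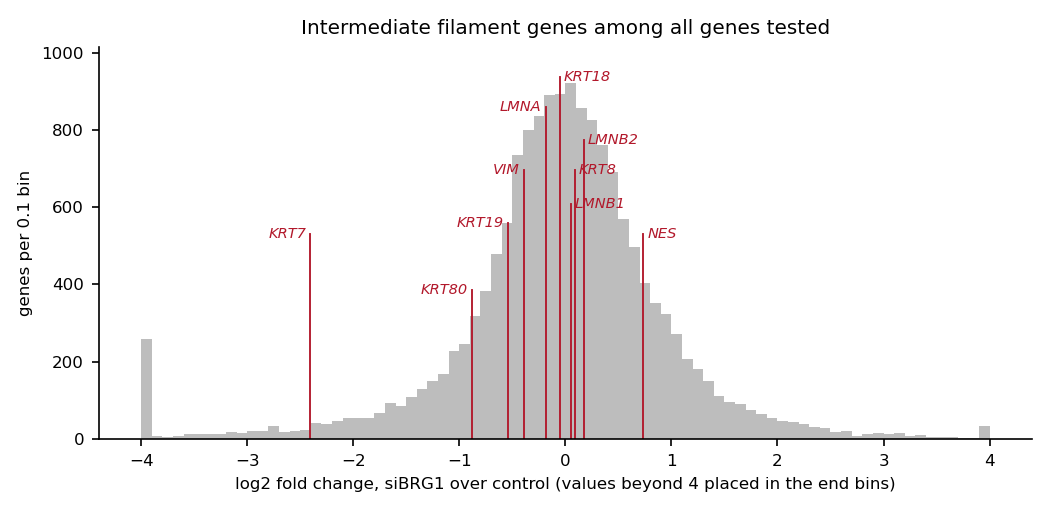
Number of genes per 0.1 step of log2 fold change (siBRG1 over control) for all 15830 genes tested, in grey, with the 10 intermediate filament genes as red lines. KRT7 lies in the lower tail, while the lamin genes, KRT8 and KRT18 lie near the centre.

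The lamin genes differed little, and not in one direction. LMNA, which gives the A-type lamins A and C, stood at 300, 296 and 279 CPM in siBRG1, against 336, 334 and 324 CPM in control. The groups did not overlap, and LMNA fell by 0.18 on the log2 scale (SE 0.0383, adjusted p = 0.000110). After removal of GC and length trends the log2 fold change was −0.35.

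LMNB1, a B-type lamin gene, stood at 313, 287 and 303 CPM in siBRG1, against 295, 289 and 289 CPM in control. The siBRG1 libraries lay on both sides of the control libraries. The difference of 0.05 on the log2 scale (SE 0.0385, adjusted p = 0.245) did not pass, with a 95% interval of −0.03 to 0.13. It was called as higher without siBRG1 replicate 2 (0.09, adjusted p = 0.0417) and with unstranded counts (0.10, adjusted p = 0.0219). It had the other sign once GC and length trends were removed (−0.07, adjusted p = 0.103).

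LMNB2, the other B-type lamin gene, stood at 528, 527 and 465 CPM in siBRG1, against 442, 453 and 454 CPM in control. Replicate 3 of siBRG1 lay close above the control libraries. LMNB2 differed by 0.17 on the log2 scale (SE 0.0419, adjusted p = 0.000600), and by −0.04 (adjusted p = 0.268) after removal of GC and length trends. LMNA, LMNB1 and LMNB2 lie on chromosome 1 (156082573 to 156140089), chromosome 5 (126776623 to 126837020) and chromosome 19 (2427638 to 2456996). By the authors' deposited table the log2 fold changes were −2.43 for KRT7, −0.42 for VIM, 0.71 for NES, −0.21 for LMNA and 0.02 for LMNB1. There KRT19, KRT80 and KRT18 had −0.56, −0.91 and −0.08. KRT8 had 0.06 (adjusted p = 0.0361) and LMNB2 0.15 (adjusted p = 0.00121), both by the authors' DESeq2.

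Levels of different genes were compared as CPM per kb of merged exons. In siBRG1 KRT18 was highest (403 ± 28.9), followed by VIM (310 ± 15.02), KRT19 (260 ± 6.17) and KRT8 (241 ± 6.73), all in CPM per kb (SD, n = 3). In control the order was the same, with KRT18 at 417 ± 7.11, VIM at 406 ± 13, KRT19 at 378 ± 8.72 and KRT8 at 226 ± 1.86 CPM per kb. KRT18 and VIM in control lay within 1 SD of each other. LMNB2 and LMNB1 came next in both groups, at 93.3 ± 6.64 and 82.9 ± 3.64 CPM per kb in siBRG1 and 82.8 ± 1.19 and 80.1 ± 0.885 CPM per kb in control. KRT7 was the gene that changed by more than 1 place. It stood at 9.03 ± 1.099 CPM per kb in siBRG1, below KRT80 (11.1 ± 1.052) in every library and below LMNA (41.8 ± 1.599). In control KRT7 stood at 47.9 ± 2.22 CPM per kb, within the spread of LMNA (47.4 ± 0.961) and above KRT80 (20.4 ± 1.02). NES was lowest, at 0.846 ± 0.119 CPM per kb in siBRG1 and 0.511 ± 0.0864 CPM per kb in control.

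The order at the top depends on which length is used. Per kb of the principal transcript, a length chosen after the annotation was seen, KRT18 (830 ± 59.5), KRT8 (779 ± 21.8) and VIM (748 ± 36.3) led in siBRG1. In control VIM (982 ± 31.4) led KRT18 (860 ± 14.7) and KRT8 (732 ± 6.03). KRT7 stood above KRT80 in siBRG1 on this scale, at 21.1 ± 2.56 against 12.5 ± 1.19 CPM per kb. KRT8 moved most between the scales, with 6881 bases of merged exons and 2126 in the principal transcript.

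**Figure D3:**
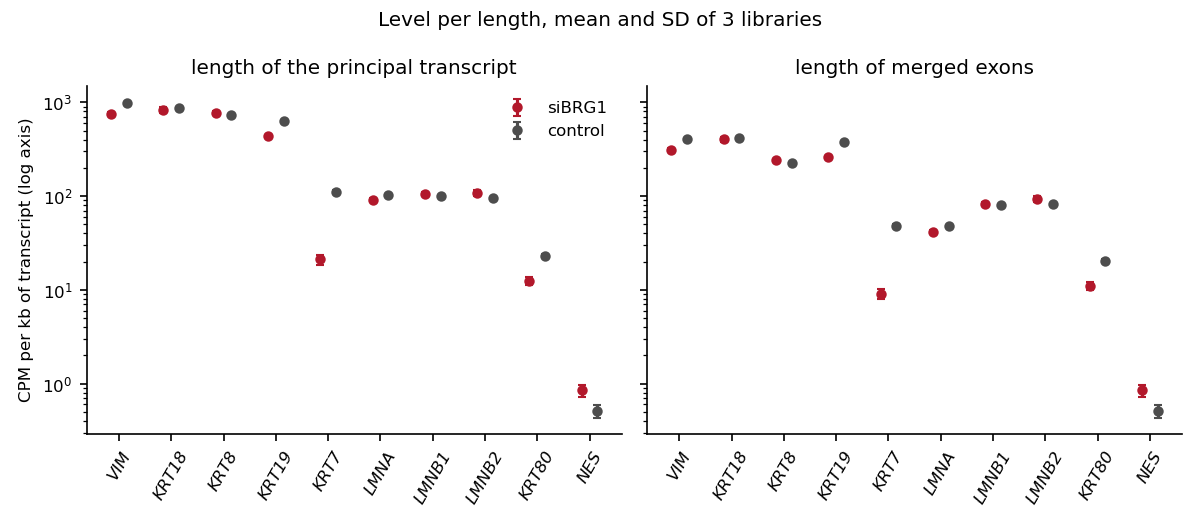
CPM per kb of transcript on a log axis for the 10 genes, siBRG1 in red to the left of control in grey, mean and SD of 3 libraries, with the length of the principal transcript (left panel) or of merged exons (right panel). In both panels KRT7 lies near the lamin genes in control and near KRT80 in siBRG1.

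The balance among the RNAs was followed per kb of the principal transcript alone, the length chosen after the annotation was seen. Each measure covers the same libraries. KRT7 made up 2.59 ± 0.259% of the 3 type II member keratins in siBRG1 and 12.9 ± 0.508% in control (SD, n = 3 each). In the same libraries KRT8 took 95.9 ± 0.280% in siBRG1 and 84.5 ± 0.571% in control, and KRT80 took 1.53 ± 0.107% in siBRG1 and 2.65 ± 0.141% in control. Among the type I chains, KRT19 made up 34.6 ± 2.15% in siBRG1 and 42.5 ± 0.450% in control. RNA of type II chains stood to that of type I chains at a ratio of 0.641 ± 0.00612 in siBRG1 and 0.580 ± 0.0101 in control. VIM RNA stood to that of the 5 keratin genes at 0.361 ± 0.0304 in siBRG1 and 0.416 ± 0.00911 in control. B-type genes made up 70.0 ± 0.296% of lamin RNA in siBRG1 and 65.5 ± 0.490% in control. With this length the groups did not overlap in any of the 7 measures. An exact two-sided permutation test gave p = 0.1 for each (adjusted p = 0.1 over the 7), the smallest p possible. Shares and ratios between genes depend on the length used. None was taken per kb of merged exons, so the separation may not hold on that scale. The measures share genes, so they are not separate results. In CPM the groups did not overlap for 74.3% of all genes either.

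In all, 8 pairs of genes were also compared by their log2 ratio of CPM in each library. KRT7 fell against its relative KRT8 in every library, with log2 ratios of −5.38, −5.67 and −5.43 in siBRG1 and −3.07, −2.97 and −2.94 in control, a difference of −2.50. The KRT8 to KRT18 ratio was 0.36 ± 0.0640 in siBRG1 and 0.21 ± 0.0278 in control, a difference of 0.14 on the log2 scale. The VIM to KRT18 ratio was 0.30 ± 0.173 in siBRG1 and 0.64 ± 0.0242 in control. The LMNB1 to LMNA ratio was 0.05 ± 0.0819 in siBRG1 and −0.19 ± 0.0219 in control. Several pairs share a gene, and in CPM the groups did not overlap for 74.3% of all genes. The groups lay apart in 7 of the 8 pairs (p = 0.1 each by an exact two-sided permutation test, adjusted p = 0.114 over 8 pairs). LMNB1 to LMNB2 was the exception, at −0.75 ± 0.130 in siBRG1 and −0.63 ± 0.0367 in control (exact permutation p = 0.3, adjusted p = 0.3).

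**Figure D4:**
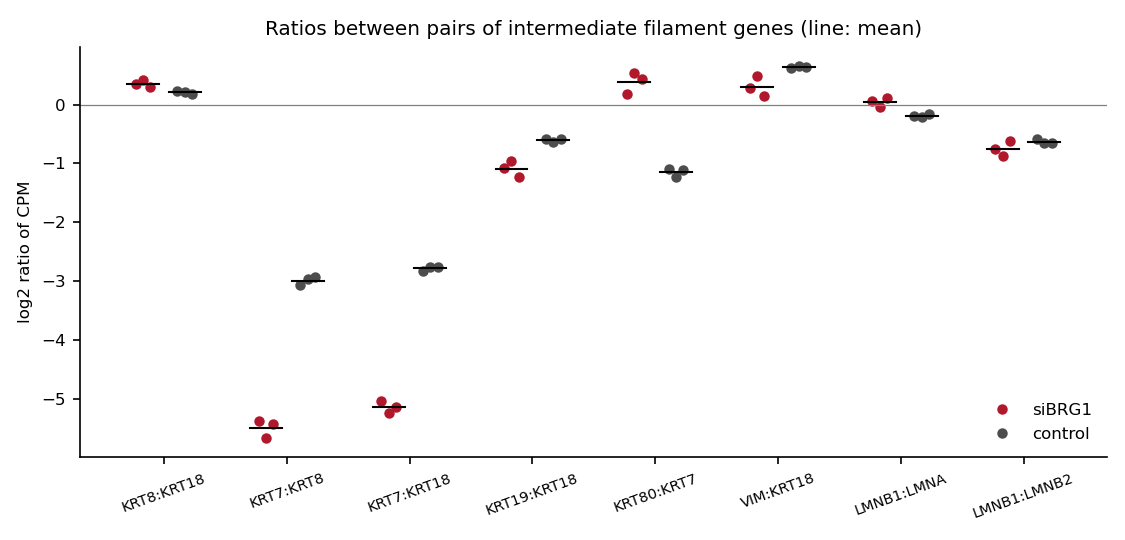
Log2 ratio of CPM between pairs of intermediate filament genes in each library, siBRG1 in red to the left of control in grey, with a line at the mean. The pairs with KRT7 lie farthest apart between groups, by 2.50 on the log2 scale for KRT7 to KRT8, and LMNB1 to LMNB2 overlaps.

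Most other keratin genes were too low to test. Of 22 other type I keratin genes 4 were high enough to be tested. All 4 were called lower, beside 36.5% of all genes, and the median change on the log2 scale was −1.28. KRT32 is part of both this count and the median, but it passed the filter through its control libraries alone. Its direction was therefore fixed by the filter, and it adds nothing to the count or the median. KRT34, a hair keratin gene, stood at 1.14 ± 0.225 CPM in siBRG1 and 5.34 ± 0.681 CPM in control (−2.22 on the log2 scale, SE 0.223, adjusted p = 6.35e-10). KRT15, a basal-cell keratin gene, had 2.01 ± 0.402 CPM in siBRG1 and 4.66 ± 0.0792 CPM in control (−1.21 on the log2 scale, adjusted p = 2.95e-06). KRT10, the keratin gene of the suprabasal epidermis, had 28.3 ± 1.87 CPM in siBRG1 and 42.8 ± 2.69 CPM in control (−0.60 on the log2 scale, adjusted p = 1.02e-08). KRT32, named after its values were seen, had only 9 counts in siBRG1 and 76 in control, and its call (adjusted p = 0.0353) was lost without siBRG1 replicate 1 (adjusted p = 0.188), with DESeq2 (adjusted p = 0.0757) and with the replicate number as a block (adjusted p = 0.0514).

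Of 23 other type II genes only KRT81 was tested, with 4 counts in siBRG1, all in replicate 2, and 147 in control. KRT81, also named after its values were seen, was called lower (−3.43 on the log2 scale, adjusted p = 2.08e-05), but without siBRG1 replicate 2 the group was at 0 counts and the fitted value of −8.15 depends on the prior count. Hair keratin genes such as KRT81 have near-identical relatives, so this value is uncertain. No count at all was found for 15 of the 22 type I genes in siBRG1 and 10 in control, and for 18 of the 23 type II genes in siBRG1 and 15 in control. The shallower siBRG1 libraries limit that comparison, as 3 counts stand for 0.224 to 0.242 CPM there and 0.0603 to 0.0746 CPM in control. A gene that passed the filter through its control libraries alone had to be lower in siBRG1. This holds for KRT32 and KRT81, so their falls add no support to those of the other keratins.

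Of 10 other cytoplasmic filament genes 3 were tested, and INA and SYNM fell while BFSP1 rose. INA, the neuronal filament gene of alpha-internexin, stood at 5.42 ± 1.99 CPM in siBRG1 and 22.8 ± 0.311 CPM in control (−2.08 on the log2 scale, SE 0.132, adjusted p = 3.05e-14). SYNM, which encodes synemin, a partner of vimentin and desmin, fell by 0.30 on the log2 scale (SE 0.0681, adjusted p = 0.000315). BFSP1, a lens filament gene named after its values were seen, was at 1.59 ± 0.528 CPM in siBRG1 and 0.551 ± 0.173 CPM in control (1.54 on the log2 scale, adjusted p = 0.000376). The desmin gene DES had 1 count in each group, and GFAP 2 counts in siBRG1 and 11 in control.

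RNAs of genes whose proteins tie filaments to junctions, to the matrix and to one another went both ways. Of 14 such genes tested, 7 fell and 4 rose, beside 36.5% and 36.1% of all genes, and the median change on the log2 scale was −0.19. PPL, which encodes the desmosomal linker periplakin, rose most, at 68.0 ± 4.26 CPM in siBRG1 and 21.5 ± 0.748 CPM in control (1.66 on the log2 scale, SE 0.0622, adjusted p = 1.67e-19). ITGB4, the hemidesmosomal integrin subunit that binds plectin, rose by 1.39 on the log2 scale (SE 0.0728, adjusted p = 4.05e-16).

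FBF1, a keratin-binding junction protein gene, was called at 0.42 (adjusted p = 0.0394), a call made in 5 of 16 settings. It was lost without siBRG1 replicate 1 or 3 (adjusted p = 0.165 and 0.101) and without control replicate 1, 2 or 3 (adjusted p = 0.127, 0.0844 and 0.0795). EPPK1, which encodes epiplakin, fell by 1.41 on the log2 scale (SE 0.188, adjusted p = 1.34e-07). TCHP (trichoplein, a keratin-binding protein) and FAM83H (a keratin organiser) had log2 fold changes of −1.04 and −0.98. PLEC, which encodes plectin, the general crosslinker of filaments, was named after its values were seen. It stood at 517 ± 51.8 CPM in siBRG1 and 896 ± 54.7 CPM in control (−0.79 on the log2 scale, SE 0.0614, adjusted p = 1.25e-08).

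Genes listed as partners of the lamina or of the nuclear envelope, not all of them lamin-binding, also went both ways. Of 16 tested, 9 rose and 4 fell, beside 36.1% and 36.5% of all genes, and whether the list differs from other genes was not tested. The median change on the log2 scale was 0.23, and after removal of GC and length trends 10 rose and 5 fell. SYNE2, the nesprin gene that links the nucleus to the cytoskeleton, stood at 149 ± 10.5 CPM in siBRG1 and 84.5 ± 5.34 CPM in control (0.81 on the log2 scale, SE 0.0514, adjusted p = 2.68e-14). SUN2, whose product binds nesprins across the envelope, rose by 0.81 (SE 0.0516). BANF1, a DNA-bridging protein gene, rose by 0.64 (SE 0.0405). After removal of GC and length trends SYNE2 stood at 1.28.

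TOR1AIP2, listed as a gene whose product activates torsin ATPases, went furthest the other way, while TOR1AIP1 was not called (0.09, adjusted p = 0.0842). TOR1AIP2 stood at 74.8 ± 3.82 CPM in siBRG1 and 252 ± 5.21 CPM in control (−1.75 on the log2 scale, SE 0.0447, adjusted p = 1.53e-23). LBR, the lamin B receptor gene, and EMD, which encodes emerin, had log2 fold changes of −0.35 and −0.23 (SE 0.0428 and 0.0526). That of EMD was −0.41 after removal of GC and length trends. Among 5 enzymes that process prelamins, ZMPSTE24, the protease that matures lamin A, fell by 0.85 (SE 0.0478, adjusted p = 2.15e-15). FNTA, a farnesyltransferase subunit gene, rose by 0.27 (SE 0.0614), and by 0.47 after removal of GC and length trends. RCE1, a CAAX protease gene, had 0.26 (adjusted p = 0.00633), which turned to −0.03 (adjusted p = 0.719) after removal of GC and length trends. FNTB and ICMT did not pass (log2 fold changes −0.07 and 0.04).

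**Figure D5:**
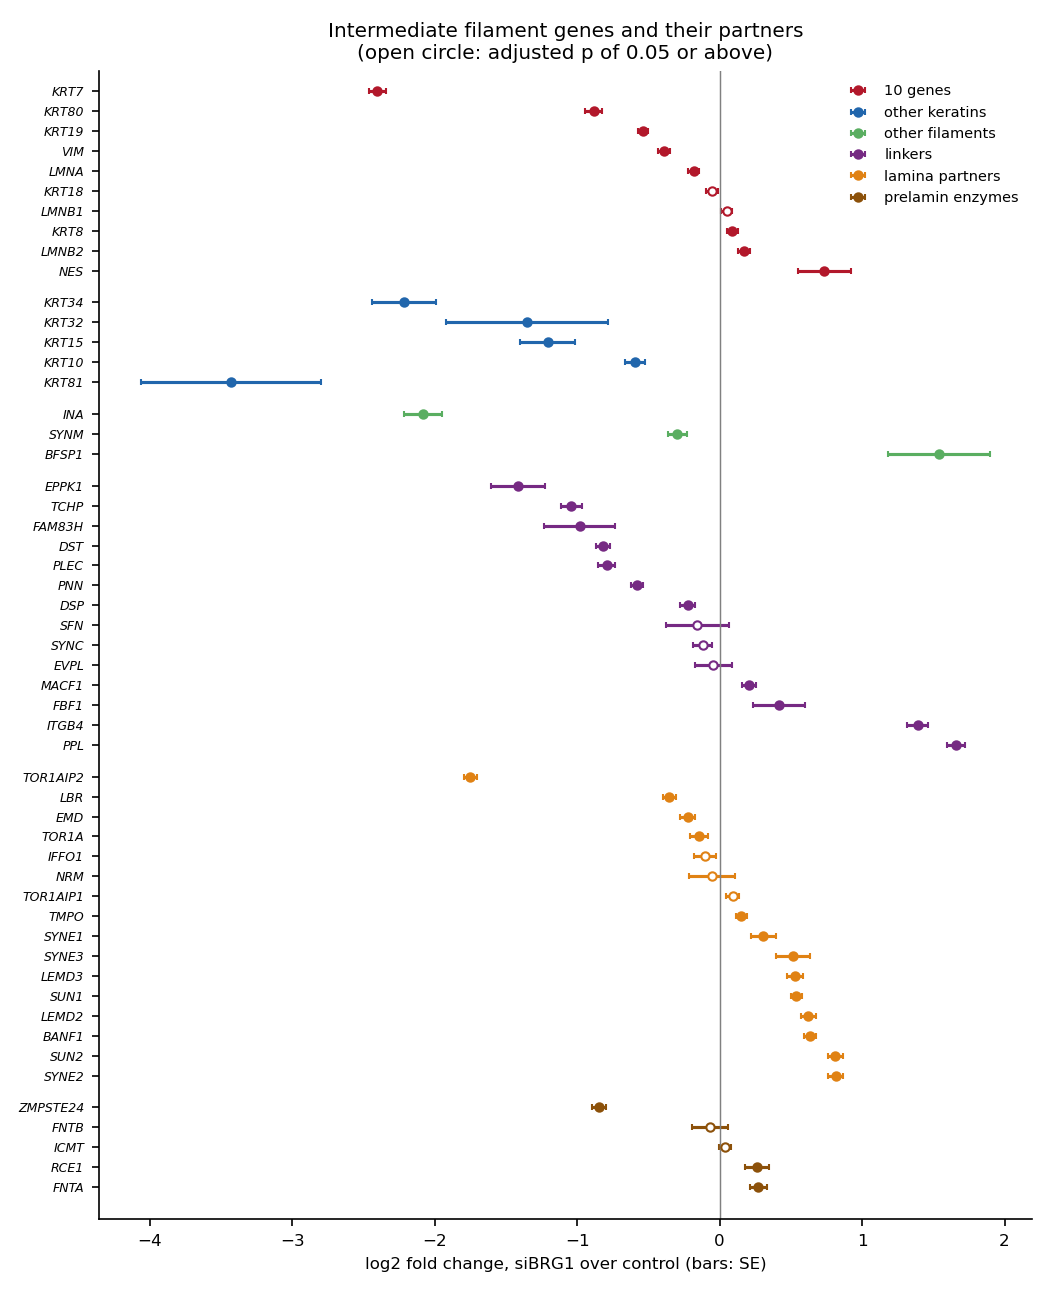
Log2 fold change (siBRG1 over control) with SE for the 10 intermediate filament genes and the tested genes of the related lists, coloured by list, with open circles where the adjusted p was 0.05 or above. All 5 other keratins lie left of 0, where KRT32 and KRT81 had to lie because of the filter. Most lamina partners lie right of 0.

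LMNB1 RNA is known to drop in senescent cells, so genes of proliferation and arrest are given beside it. Of 12 tested, 8 were higher and 3 lower in siBRG1, beside 36.1% and 36.5% of all genes, and the median change on the log2 scale was 0.75. The inhibitor genes CDKN1A, CDKN2B and CDKN2A had log2 fold changes of 1.48, 1.39 and 1.31 (SE 0.0589, 0.0654 and 0.0436). MKI67, a marker of cycling cells, fell by 0.59 (SE 0.0473), and CCNB1 and TOP2A, both active in dividing cells, had −0.18 and −0.14. Other proliferation genes of the list, named after their values were seen, went the other way. CDK1, HMGB2, E2F1, MCM2 and PCNA had log2 fold changes of 1.22, 1.08, 0.84, 0.66 and 0.51, and CCNA2 did not pass (0.02, adjusted p = 0.667) but was called higher with unstranded counts (0.14, adjusted p = 0.00161). After removal of GC and length trends TOP2A stood at −0.03 (adjusted p = 0.396), and with unstranded counts at −0.09. LMNB1 did not pass the test in these libraries, and its relation to the inhibitor genes was not tested.

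The genes whose profile over the 6 libraries came nearest to that of KRT7 were HBEGF, NPPB and FOSL1, by Euclidean distance of centred log2 CPM (0.294, 0.300 and 0.303) among 10735 protein-coding genes. HBEGF encodes an EGF receptor ligand, NPPB a natriuretic peptide and FOSL1 an AP-1 subunit. Their log2 fold changes were −2.26, −2.36 and −2.23, beside −2.40 for KRT7. The distance covers the same 6 libraries, so like fold changes follow from how these genes were picked. Whether they share regulation with KRT7 was not tested. HBEGF stood at 7.52 ± 0.562 CPM in siBRG1 and 36.2 ± 2.63 CPM in control (SD, n = 3 each). FOSL1 stood at 31.2 ± 2.03 CPM in siBRG1 and 146 ± 8.50 CPM in control, and NPPB at 30.7 ± 0.871 CPM in siBRG1 and 158 ± 2.26 CPM in control.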

How the data were processed

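Per library, the authors deposited raw gene counts for both strands and without strand, in STAR's output layout. The authors also deposited their own comparison, with log2 fold changes, standard error scores, a mean signal and p-values, per the file headers. Tools in the submitters' processing notes, with no version, are STAR, DESeq2, cutadapt, FastQC and Trim Galore, and the build is GRCh38.p12. Which annotation release was used is not given there. Of 58336 identifiers 58216 matched GENCODE 29 without version and 56888 with it. The sense column was used, and entries that name no gene (27.7 to 30.3% of reads in siBRG1, 28.5 to 29.5% in control) were left out. Their make-up differed between the groups. Reads in no feature were 3.85 to 4.20% of reads in siBRG1 and 12.8 to 13.6% in control. Reads that map to several places were 18.5 to 21.5% in siBRG1 and 9.57 to 10.0% in control. Tests between groups used R 4.3.3 and edgeR 4.0.16 (TMM, filterByExpr, robust quasi-likelihood, group as the only term, Benjamini-Hochberg over 15830 genes), tested on simulated data. SE is the absolute log2 fold change over the square root of F. Ratios, shares and pseudogene sums went through exact two-sided permutation tests in scipy 1.17.1. Libraries of one group were distinct (chi-square of counts over degrees of freedom 2.50 to 4.20). Depth sets the precision: 3 counts stand for 0.236 ± 0.00974 CPM in siBRG1 and 0.0690 ± 0.00761 CPM in control (SD, n = 3 each).

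The members and lists were chosen with earlier results of these data known. From each list up to 3 rises and 3 falls that passed and averaged 50 counts or more are named, and for KRT7 the 3 nearest profiles averaging 100 counts or more (log2 of CPM plus 0.5). Alternatives were DESeq2 1.42.0, its size factors, other filters, unstranded counts, protein-coding genes alone, GC and length trends removed, thinned control counts, a replicate block and leaving out each library. Principal-transcript lengths, and the shares and ratios taken from them, were added later.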

Additional observations from a re-analysis of the deposited data

How the results depend on the processing

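KRT7, KRT19, KRT80, VIM, NES and LMNA kept their direction and their call under all 15 alternatives, with log2 fold changes of −2.68 to −2.31, −0.79 to −0.48, −1.07 to −0.83, −0.66 to −0.35, 0.55 to 0.86 and −0.35 to −0.12. LMNB2 was called in all but one. With GC and length trends removed the members higher in siBRG1 came to 1, and the signs of KRT8 (−0.0193), LMNB1 (−0.0671), LMNB2 (−0.0443) and RCE1 (−0.0341) turned, while without siBRG1 replicate 2 that of KRT18 did (range over left-out libraries −0.104 to 0.0015). CCNA2 turned with no count filter (−0.0255), with protein-coding genes alone (−0.0225) and in the range over left-out libraries (−0.010 to 0.0392). The cause was not tested. KRT8 was also not called with DESeq2 size factors (adjusted p = 0.0813), no count filter (0.371) or protein-coding genes alone (0.228). Genes called with at least 2-fold change came to 3412, and to 2050 with at least 50 counts in 3 libraries and 2064 with protein-coding genes alone, where fewer genes were tested. With that count filter and with thinned control counts 0 other type II keratins were called, since KRT81 was no longer tested. With no count filter the median log2 fold change of all genes was −0.30, where 30426 genes were tested. With the replicate number as a block VIM stood at −0.39, the 10 genes kept 3 higher and 5 lower, and 11194 genes were called in all, against 11498. Same-numbered libraries did not deviate together over all genes tested (r = −0.0126, 0.0220 and 0.00898). These values cannot exclude a pairing that affects few genes. With control counts thinned to siBRG1 depth FBF1 lost its call (adjusted p = 0.0885), BFSP1 stood at 1.96 and NES kept its call (0.79, adjusted p = 0.00188).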
